A study of Homo sapiens with 16 samples.

Results

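The proteasome subunit genes were the protein-coding genes whose symbol starts with PSM, then a letter from A to G, then only a number, and that had a row in all 4 of the authors' deposited tables. There were 46 of them among 19344 genes present in all 4 tables. PSMA8 and PSMB11 were not among the rows. Polyadenylated RNA of U2OS, an established human osteosarcoma line, was measured by stranded RNA-seq. Cells transfected with a control siRNA (siControl) were treated for 24 h with DMSO, the solvent, or with 10 µM Nutlin-3a, and cells transfected with a siRNA against RFX7 (siRFX7) were treated in the same 2 ways. There were 16 libraries, 4 in each of these 4 groups, and every group carried a siRNA and a solvent or compound. Nutlin-3a blocks the binding of MDM2 to p53, which stabilises p53, and RFX7 is a transcription factor. The labels do not give the siRNA sequences, and nothing in them says that the libraries of a group came from separate cultures, so the p-values measure the spread between these libraries.

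The proteasome is the protease complex that degrades ubiquitin-tagged proteins. Its 20S core is a barrel with outer rings of alpha subunits (PSMA genes) and inner rings of beta subunits (PSMB genes), and 3 of the beta subunits, from PSMB5, PSMB6 and PSMB7, are proteases. The 19S cap binds and unfolds substrates, with a base of ATPases (PSMC genes) and scaffold subunits and a lid (both PSMD genes). In cells exposed to interferon gamma, PSMB8, PSMB9 and PSMB10 replace PSMB5, PSMB6 and PSMB7, which makes the immunoproteasome, and the activator subunits PSME1 and PSME2 are raised. That form is known for producing peptides for MHC class I.

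The 31 constitutive core and cap genes are set beside the interferon-inducible genes throughout. With Nutlin-3a, 22 of the 31 constitutive genes fell in siControl and 16 in siRFX7, by small amounts, and none passed the test as higher. Those are 71.0% and 51.6%, against 19.6% and 20.3% of all genes called lower. All genes means every row, and of 23353 rows with Nutlin-3a in siControl, 13525 had a mean normalised count of 100 or more. No share among genes of like level was computed, so the shares of all genes here and below are not matched for level. The median log2 fold change of the constitutive genes was -0.16 in siControl and -0.13 in siRFX7. With siRFX7, PSMB8, PSMB9, PSMB10, PSME1 and PSME2 were all lower under both treatments, with changes from -15.6% to -40.9%. PSME1 and PSME2 were grouped with PSMB8, PSMB9 and PSMB10 after their values had been seen. The other activator genes, PSME3 and PSME4, rose under both treatments. As many constitutive genes rose as fell under DMSO. Under DMSO 25.8% of the constitutive genes were called each way, against 19.9% of all genes called higher and 17.5% called lower. The tables give no value of a single library, so levels below are group levels, in normalised counts, recovered from the authors' base mean and log2 fold change. They can be compared within a table and not between tables, which were normalised separately. In cell populations, fewer cells that express a gene and less RNA per cell cannot be told apart.

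The promoters of the interferon-inducible genes are shown first because all 5 genes fell with siRFX7 under both treatments. Of these 5, PSME1 and PSME2 were included after their values had been seen. RefSeq promoter windows on GRCh38.p14, from 250 bases before to 50 after a start, matched 40 of the 46 genes, and PSMA7, PSMB1, PSMB6, PSMB7, PSMD4 and PSMG3 were unmatched. The core letters of the interferon-stimulated response element, GAAANNGAA on either strand, were found in PSMB8, PSMB10, PSME1 and PSME2. Windows of 29 bases around each match follow, read 5′ to 3′ on the gene's strand, with the match in capitals. The matches in PSMB8 and PSME1 read as the reverse complement.
PSMB8, chr6:32844032-32844060, minus strand: atctgtggctTTCGCTTTCacttcctcct
PSMB10, chr16:67936853-67936881, minus strand: gggtaaaggcGAAAGCGAAagcaggaagt
PSME1, chr14:24136190-24136218, plus strand: ccctaccgctTTCGCTTTCccttcgcggt
PSME2, chr14:24146620-24146648, minus strand: cctggggagtGAAAGCGAAagcccgggcg

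All 4 matches read GAAAGCGAA on one strand or the other, and each overlapped an annotated exon, within 28 bases of the start (position -3 in PSMB8, -21 in PSMB10, 6 in PSME1 and -28 in PSME2, for the first base of the match with the start as 0). PSMB8 had 2 windows from different starts, and only 1 of them held the match. None of these 4 matches overlapped another motif searched. Of 10816 protein-coding genes of all 4 tables with a promoter window, 0.49% held GAAAGCGAA, letters chosen after the windows had been read. Among the proteasome genes PSMG4, an assembly chaperone, also held it. The looser GAAANNGAA was in 8 of 40 proteasome genes (20%), among them 3 of 26 constitutive genes (PSMA4, PSMB4 and PSMC2), against 8.68% of the 10816. PSMB9 had no match in its window, which says only that these letters are not there. A match is a description of the sequence, and no binding was measured.

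Other motifs were spread over the family. TTCNNNGAA, the gamma-activated sequence, was in 7 of 40 (17.5%, against 8.62% of the 10816), including PSMB8 and PSMB5. TGANNNNGC, the core bound by NFE2L1 and NFE2L2, was in 26 of 40 (65.0%, against 50.8%). CCAAT was in 19 of 40 (47.5%, against 42.8%), GTTGCCA, part of the X-box bound by RFX proteins, in 4 of 40 (10.0%, against 5.09%), and TTTGAA, the cell cycle homology region, in 6 of 40 (15.0%, against 14.1%). The genes with GTTGCCA were PSMB5, PSMD12, PSME2 and PSMF1. Matches were counted on both strands. In PSMB8 a TTTGAA match overlapped a TGANNNNGC match.

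The labels were first checked against marker genes in the authors' deposited tables. RFX7 had log2 fold changes with siRFX7 of -2.42 (SE 0.07) under DMSO and -2.37 (SE 0.07) under Nutlin-3a, although the signs of RFX7, CDKN1A and MDM2 also served to settle the direction of the tables. CDKN1A and MDM2, p53 targets, were higher with Nutlin-3a by 2.76 to 3.24. Of 8 osteoblast lineage markers, COL1A1, SPARC, RUNX2, ALPL and SPP1 were present, SP7 was not among the rows, and COL1A2 and BGLAP were at a base mean of at most 13.2. Of the markers of other lineages, PTPRC, CD14 and PECAM1 were at a base mean of at most 5.21 where they had a row, and CD3E was not among the rows. The epithelial markers EPCAM and CDH1 were at 121 to 214 and were higher with siRFX7 under both treatments, by 0.41 to 1.10. Their part in the results below was not tested. The base means of a table added up to between 27946376 and 35311111 normalised counts, and the median log2 fold change of genes at a base mean of 100 or more was between -0.03 and 0.01.

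With Nutlin-3a in siControl, 27 of 46 proteasome genes fell (58.7%) and 2 rose (PSMB8 and PSME1), at an adjusted p under 0.05 in the authors' deposited table from DESeq2's Wald test. Over all 23353 genes of that table, 19.6% were called lower and 18.3% higher. The log2 fold change was below 0 for 41 of the 46, with a median of -0.15, against 0.01 over all genes. In siRFX7, 21 fell (45.7%) and none rose, against 20.3% called lower and 18.7% called higher over the 21382 genes of that table, and 39 were below 0. These comparisons share no library. All 19 genes called in both were lower in both, and 44 of 46 had the same sign, with a Pearson correlation of 0.81 across genes, which share these libraries and are not replicates. The same figures over all genes were not computed, so this agreement is not shown to be particular to the proteasome genes. The calls were small: at a size of at least 0.25 on the log2 scale, 7 genes were lower in each table and none was higher.

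**Figure D1:**
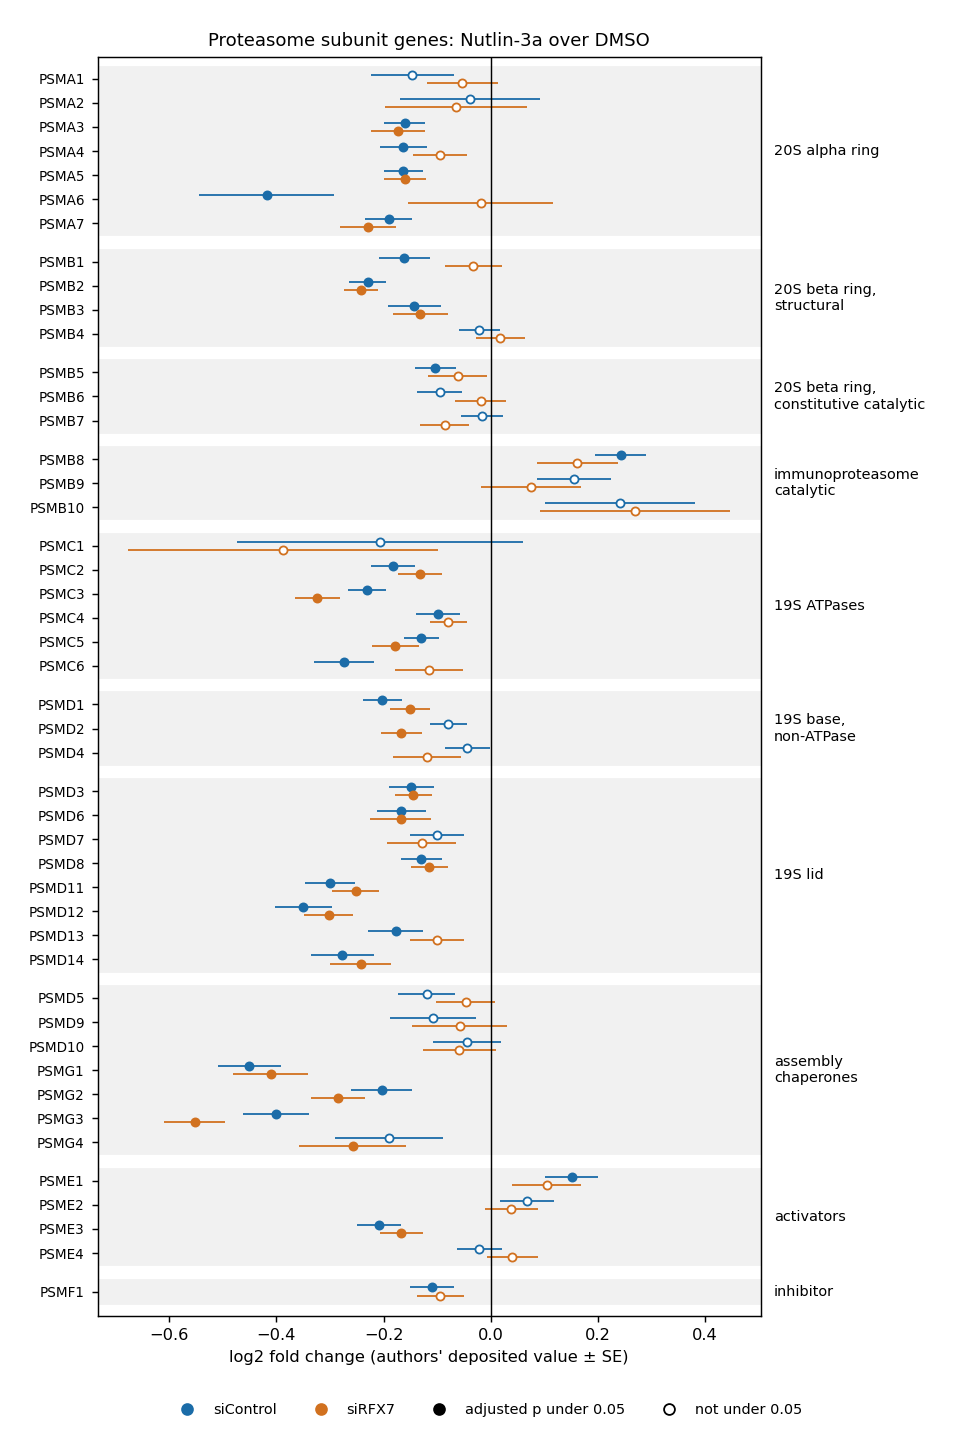
Log2 fold change of Nutlin-3a over DMSO for each of the 46 genes, by role, in siControl (blue) and siRFX7 (orange); bars are the authors' SE and filled points have an adjusted p under 0.05. All 31 constitutive genes lie left of 0 in siControl, while PSMB8, PSMB9, PSMB10, PSME1 and PSME2 lie right of it in both.

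Of the alpha ring genes, which form the gate and outer wall of the core, 5 of 7 fell with Nutlin-3a in siControl and 3 of 7 in siRFX7. As shares, 71.4% and 42.9% were lower, against 19.6% and 20.3% of all genes. PSMA3, PSMA5 and PSMA7 fell in both, by 0.16 to 0.23. PSMA6 had the lowest value of the ring in siControl, where its level went from 216 to 161 normalised counts (log2 fold change -0.42, SE 0.13, adjusted p = 0.0033 in the authors' deposited DESeq2 table). In siRFX7 it was -0.02 (SE 0.14, adjusted p = 0.937), at a low level in both. It has near copies in the genome with rows of their own, described further on. PSMA1 and PSMA2 did not pass in either table.

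Of the structural beta genes, PSMB2 and PSMB3 fell in both siRNA backgrounds and PSMB1 in siControl. PSMB2 went from 9318 to 7945 in siControl and from 8097 to 6845 in siRFX7, changes of -14.7% and -15.5%. PSMB3 had log2 fold changes of -0.14 (SE 0.05, adjusted p = 0.0113, DESeq2) and -0.13 (SE 0.05, adjusted p = 0.0299), the second of which did not pass when centred on the median gene (-0.11), and neither at an adjusted p under 0.01. PSMB4 was within 0.02 of 0 in both tables. Among the constitutive proteases, PSMB5, the chymotrypsin-like subunit and the target of bortezomib, fell slightly in siControl, from 3678 to 3424 (-0.10, SE 0.04, adjusted p = 0.0174, DESeq2), a call lost at an adjusted p under 0.01 and when centred on the median gene (-0.08). PSMB6, the caspase-like subunit, was at -0.10 (SE 0.04, adjusted p = 0.0615) and PSMB7, the trypsin-like subunit, at -0.02 (SE 0.04, adjusted p = 0.805). None of the 3 passed in siRFX7, at -0.06, -0.02 and -0.09.

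The 19S cap moved the same way. Among the ATPases, which unfold substrates and open the core, 5 of 6 fell in siControl and 3 of 6 in siRFX7. As shares, 83.3% and 50% were lower, against 19.6% and 20.3% of all genes. PSMC3 went from 6529 to 5561 in siControl and from 5176 to 4134 in siRFX7 (-0.23, SE 0.04, and -0.32, SE 0.04, in the authors' deposited tables). PSMC2 was at -0.18 (SE 0.04) and -0.13 (SE 0.04), and PSMC5 at -0.13 and -0.18, all called lower. PSMC4 and PSMC6 fell in siControl, by 0.10 and 0.27, and were at -0.08 (adjusted p = 0.0607) and -0.12 (adjusted p = 0.143) in siRFX7. The call of PSMC4 in siControl was lost at an adjusted p under 0.01 and when centred on the median gene (-0.07). PSMC1 did not pass in either. In the base, the scaffold gene PSMD1 fell in both (-0.20 and -0.15), the scaffold gene PSMD2 in siRFX7 (-0.17), and the ubiquitin receptor gene PSMD4 in neither.

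Of the role groups with more than 1 gene, the lid had the highest share called lower in each table. It had 7 of 8 genes lower in siControl (87.5%) and 6 of 8 in siRFX7 (75%), against 19.6% and 20.3% of all genes. The ATPases were at 83.3% in siControl and the 3 non-ATPase base genes at 66.7% in siRFX7, so this rank turns on few genes. PSMD12 went from 5306 to 4163 and from 3535 to 2866, changes of -21.5% and -18.9%. PSMD11 went from 7625 to 6195 and from 6904 to 5796, changes of -18.8% and -16.1%. PSMD14, the deubiquitinase that removes ubiquitin chains from substrates, fell by 0.28 (SE 0.06) and 0.24 (SE 0.06) on the log2 scale. PSMD8 fell by 0.13 and 0.11, and PSMD3 and PSMD6 fell in both, by 0.14 to 0.17. PSMD13 fell in siControl, and PSMD7 passed in neither table, at -0.10 and -0.13.

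The assembly chaperones held the lowest values of the family. PSMG1 and PSMG2 pair to build the alpha ring, as do PSMG3 and PSMG4. PSMG1 went from 1281 to 937 in siControl (-0.45, SE 0.06, adjusted p = 2.35e-13) and from 849 to 639 in siRFX7 (-0.41, SE 0.07, adjusted p = 2.67e-08), by the authors' DESeq2 test. PSMG3 went from 2145 to 1625 (-0.40, SE 0.06, adjusted p = 6.44e-10) and from 1457 to 993 (-0.55, SE 0.06, adjusted p = 9.07e-21). PSMG2 fell by 0.20 and 0.28, and PSMG4 by 0.26 in siRFX7 (adjusted p = 0.0276), where siControl had -0.19 (adjusted p = 0.133). That call of PSMG4 was lost at an adjusted p under 0.01 and under centring (-0.23). The chaperones of the 19S base, PSMD5, PSMD9 and PSMD10, passed in neither table and were between -0.12 and -0.04. For PSMD10, also known as gankyrin, the levels were 780 and 757 in siControl and 629 and 604 in siRFX7.

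The activators split. PSME3, the nuclear activator, fell from 7348 to 6356 in siControl and from 6413 to 5712 in siRFX7 (-0.21, SE 0.04, and -0.17, SE 0.04). PSME4, a large nuclear activator, was at -0.02 (adjusted p = 0.757) and 0.04 (adjusted p = 0.564). PSME1 rose in siControl, from 2060 to 2287 (0.15, SE 0.05, adjusted p = 0.00743, DESeq2), and was at 0.10 in siRFX7 (SE 0.06, adjusted p = 0.213). Its partner PSME2 was at 0.07 and 0.04 and passed in neither. PSMF1, an inhibitor of the core, fell by 0.11 in siControl (SE 0.04, adjusted p = 0.0213) and was at -0.09 in siRFX7 (adjusted p = 0.0728). Its call in siControl was lost at an adjusted p under 0.01 and under centring (-0.08).

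The immunoproteasome proteases stood opposite to the constitutive ones in sign. PSMB8 rose with Nutlin-3a in siControl, from 1445 to 1709 (0.24, SE 0.05, adjusted p = 1.78e-06), and in siRFX7 its levels were 840 and 940 (0.16, SE 0.08, adjusted p = 0.078), by the authors' DESeq2 test. PSMB9 levels were 638 and 710 in siControl (0.16, SE 0.07, adjusted p = 0.0663) and 303 and 319 in siRFX7 (0.08, SE 0.09, adjusted p = 0.585). PSMB10 levels were 126 and 149 in siControl (0.24, SE 0.14, adjusted p = 0.178) and 69.3 and 83.6 in siRFX7 (0.27, SE 0.18, adjusted p = 0.242). So 1 of the 6 values passed, although all 6 were above 0. Centring on the median gene, which removed the calls of PSMB5, PSMC4 and PSMF1 in siControl and of PSMB3 and PSMG4 in siRFX7, added PSMB9 in siControl (0.18) and PSMB8 in siRFX7 (0.19).

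With siRFX7 the family split by gene rather than by direction. Under DMSO, 15 of 46 fell (32.6%) and 11 rose (23.9%) in the authors' deposited table, against 17.5% called lower and 19.9% called higher over its 19511 genes. Under Nutlin-3a, 15 fell (32.6%) and 9 rose (19.6%), against 15.4% and 17.2% over 20335 genes. The shares called higher were near the background of their tables. At a size of at least 0.25, DMSO left 6 genes that fell and 3 that rose, and Nutlin-3a left 7 and 2. These 2 comparisons share no library. They called 21 genes in common, 13 lower in both and 8 higher in both, and 42 of 46 had the same sign, with a Pearson correlation of 0.93 across genes. Here too the agreement over all genes was not computed, so it is not shown to be particular to this family.

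**Figure D2:**
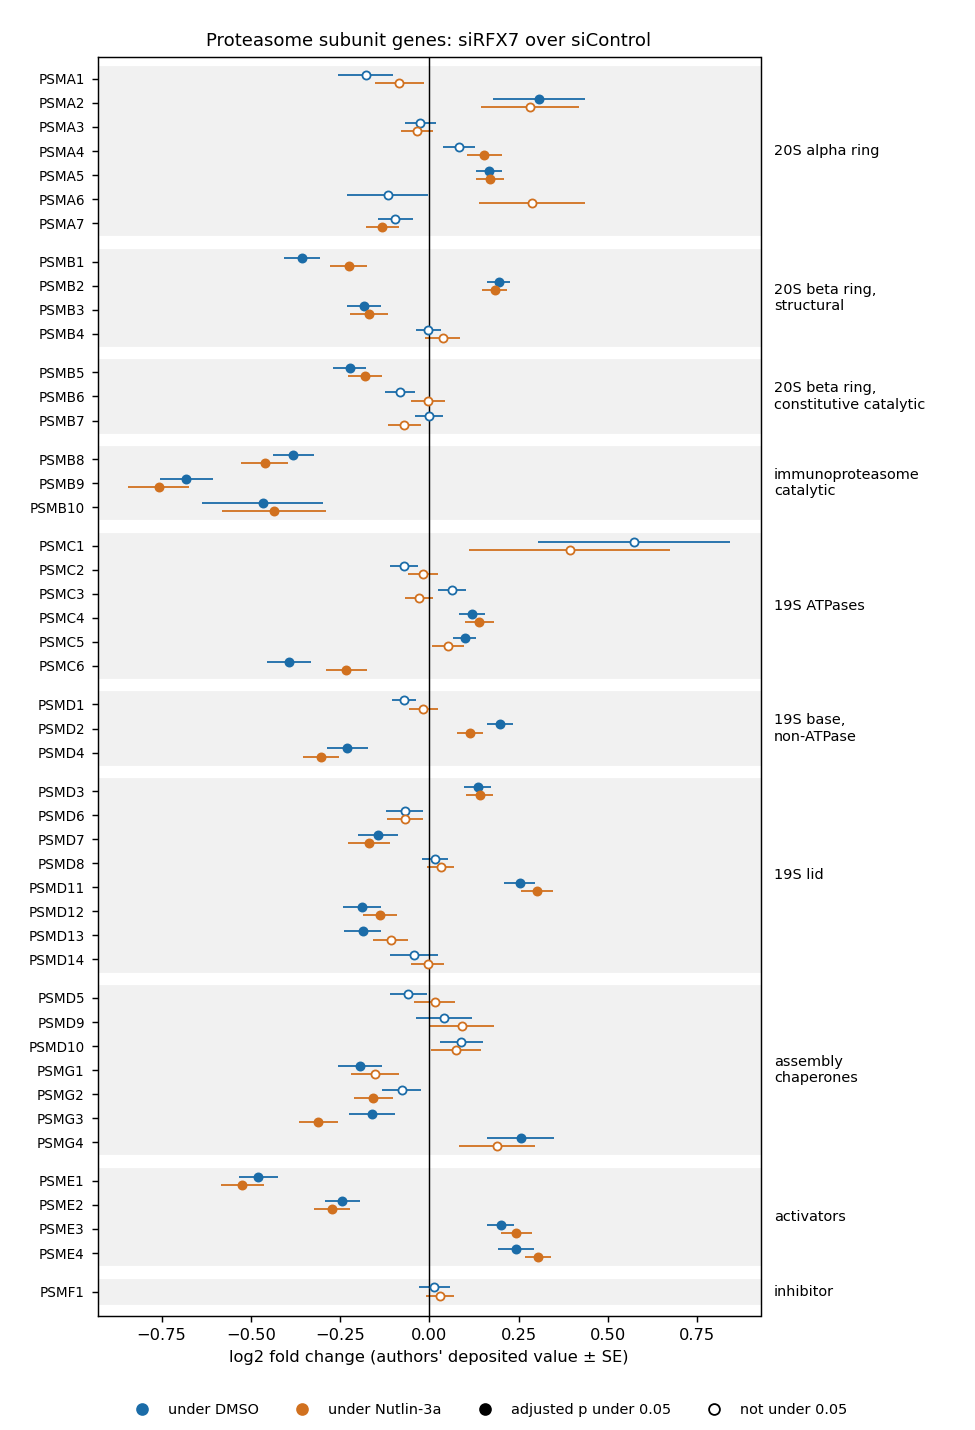
Log2 fold change of siRFX7 over siControl for each gene, by role, under DMSO (blue) and Nutlin-3a (orange); bars are the authors' SE and filled points have an adjusted p under 0.05. PSMB9 lies farthest left, at -0.68 and -0.76, and constitutive genes lie on both sides of 0.

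All 3 immunoproteasome proteases fell with siRFX7 under both treatments. PSMB9 (ENSG00000240065, chromosome 6, 32844136 to 32859585, plus strand in GENCODE 29 on GRCh38) went from 574 to 358 under DMSO (-0.68, SE 0.07, adjusted p = 2.09e-18) and from 601 to 355 under Nutlin-3a (-0.76, SE 0.09, adjusted p = 7.33e-17), by the authors' DESeq2 test. Those are changes of -37.6% and -40.9%, the lowest of the 46 genes in both tables. PSMB8 (ENSG00000204264, chromosome 6, 32840717 to 32844703, minus strand) went from 1297 to 996 (-0.38, SE 0.06, adjusted p = 4.27e-10) and from 1444 to 1049 (-0.46, SE 0.07, adjusted p = 3.42e-11). PSMB8 and PSMB9 are neighbours in the MHC class II region.

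PSMB10 (ENSG00000205220, chromosome 16, 67934502 to 67937087, minus strand) had levels of 113 and 81.9 under DMSO (-0.47, SE 0.17, adjusted p = 0.0189) and 126 and 92.9 under Nutlin-3a (-0.44, SE 0.15, adjusted p = 0.0113). Its fall was less certain than that of the others, since neither value passed at an adjusted p under 0.01 in the authors' DESeq2 tables. Exons of a gene on the same strand, AC040162.1, cover 45.3% of its coding transcript. That gene was at a base mean of 117 to 132 in these tables, with log2 fold changes of -0.00 (SE 0.13) and 0.16 (SE 0.14).

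PSME1 and PSME2, which encode partner subunits of the interferon-inducible activator and were grouped with the 3 proteases after their values had been seen, fell too. PSME1 (ENSG00000092010, chromosome 14, 24136158 to 24138967, plus strand) went from 1850 to 1328 under DMSO (-0.48, SE 0.05, adjusted p = 1.3e-17) and from 1932 to 1344 under Nutlin-3a (-0.52, SE 0.06, adjusted p = 5.93e-17), by the authors' DESeq2 test. PSME2 (ENSG00000100911, chromosome 14, 24143362 to 24147570, minus strand) went from 1938 to 1636 (-0.24, SE 0.05, adjusted p = 4.52e-06) and from 1913 to 1584 (-0.27, SE 0.05, adjusted p = 8.49e-07). The starts of these 2 genes in RefSeq are 10416 bases apart. The other activators went the opposite way, with PSME3 rising by 0.20 (SE 0.04) and 0.24 (SE 0.04) and PSME4 by 0.24 (SE 0.05) and 0.30 (SE 0.04). PSME3 levels were 6601 and 7580 under DMSO and 5379 and 6368 under Nutlin-3a. PSME4 levels were 7245 and 8569, and 6725 and 8307.

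**Figure D3:**
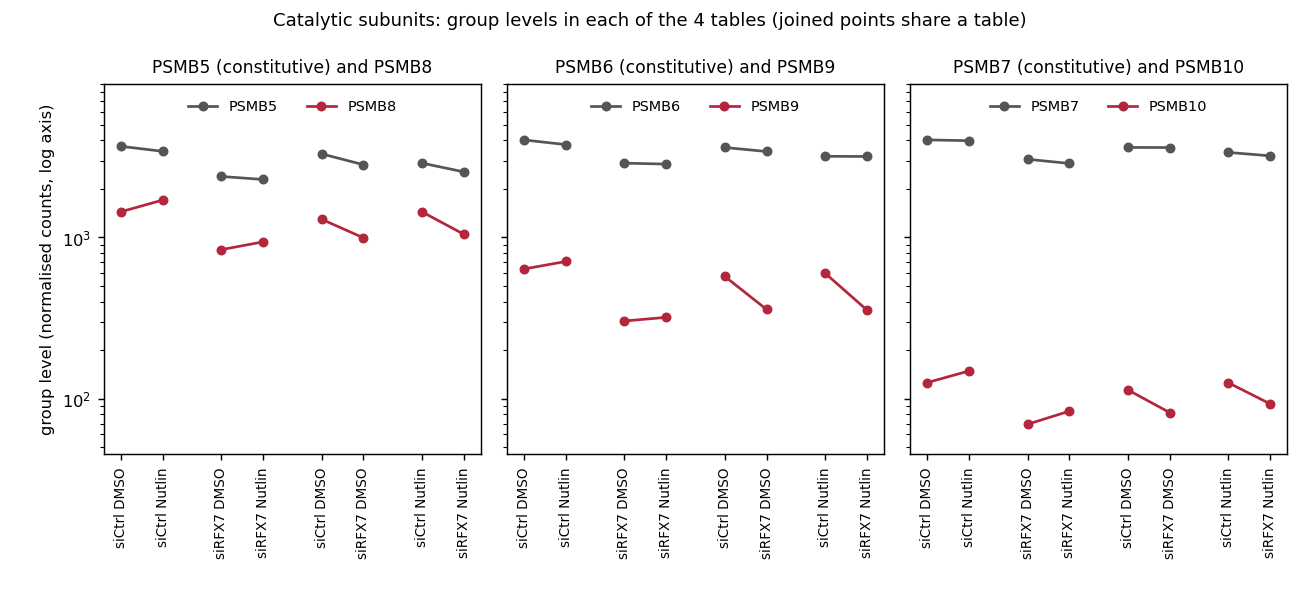
Group levels (normalised counts, log axis) of each constitutive protease (grey) and the immunoproteasome subunit that replaces it (red); each pair of joined points comes from 1 of the 4 deposited tables and has no error bar, since the tables give none for a level. The red lines fall from siControl to siRFX7 in all 3 panels, and the grey lines of PSMB6 and PSMB7 stay nearly flat.

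Of the constitutive proteases, only PSMB5 passed with siRFX7, going from 3303 to 2829 under DMSO (-0.22, SE 0.05, adjusted p = 7.97e-06) and from 2895 to 2555 under Nutlin-3a (-0.18, SE 0.05, adjusted p = 0.00073), by DESeq2. PSMB6 was at -0.08 (SE 0.04, adjusted p = 0.109) and -0.00 (SE 0.05, adjusted p = 0.964). PSMB7 was at -0.00 (SE 0.04, adjusted p = 0.977) and -0.07 (SE 0.05, adjusted p = 0.248). The ratio of each immunoproteasome subunit to the one it replaces was therefore lower with siRFX7 in all 3 pairs. PSMB9 to PSMB6 was 0.66 times its siControl value under DMSO and 0.593 times under Nutlin-3a, PSMB10 to PSMB7 was 0.725 and 0.776 times, and PSMB8 to PSMB5 was 0.896 and 0.823 times. With Nutlin-3a the same ratios were 1.07 to 1.28 times those with DMSO. No test was made of these ratios, because the tables do not give the covariance of a pair of genes.

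Among the constitutive genes, 8 rose and 8 fell with siRFX7 under DMSO, and 7 rose and 8 fell under Nutlin-3a, where 5 of the 8 passed at an adjusted p under 0.01. Those are 25.8% each way under DMSO, against 19.9% called higher and 17.5% called lower over all genes. Under Nutlin-3a they are 22.6% higher and 25.8% lower, against 17.2% and 15.4%. PSMD11, a lid subunit gene, went from 6849 to 8160 under DMSO (0.25, SE 0.04, adjusted p = 1.13e-07) and from 5243 to 6461 under Nutlin-3a (0.30, SE 0.05, adjusted p = 6.69e-10), by DESeq2. PSMB2 went from 8370 to 9571 and from 6723 to 7630 (0.19 and 0.18, SE 0.03 and 0.04). PSMA5, PSMC4, PSMD2 and PSMD3 also rose under both treatments, by 0.11 to 0.20. PSMA2 and PSMC5 rose under DMSO and PSMA4 under Nutlin-3a. The PSMA2 call was lost at an adjusted p under 0.01 and under centring, and its value turned to -0.13 with the levels of its pseudogene rows added. The chaperone gene PSMG4 rose under DMSO (0.26, SE 0.09, adjusted p = 0.0205) and was at 0.19 under Nutlin-3a (adjusted p = 0.176). It holds GAAAGCGAA, as do PSMB8, PSMB10, PSME1 and PSME2 but not PSMB9. Whether these letters have a part in any of the changes was not tested.

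The constitutive genes that fell under both treatments came from every layer of the complex but the alpha ring. PSMC6, a cap ATPase, went from 1930 to 1471 under DMSO (-0.39, SE 0.06, adjusted p = 2.87e-09) and from 1504 to 1280 under Nutlin-3a (-0.23, SE 0.06, adjusted p = 0.00029), by DESeq2. PSMB1 went from 4938 to 3856 and from 4157 to 3554, changes of -21.9% and -14.5%. PSMD4 went from 3405 to 2903 and from 3110 to 2520, changes of -14.7% and -19.0%. PSMB3, PSMB5, PSMD7 and PSMD12 fell under both, by 0.14 to 0.22. PSMD13 fell under DMSO and PSMA7 under Nutlin-3a. Of the chaperones, PSMG3 fell under both (-0.16 and -0.31), PSMG1 under DMSO (-0.19) and PSMG2 under Nutlin-3a (-0.16). PSMF1 was at 0.01 and 0.03 and PSMD10 at 0.09 and 0.08, and neither passed.

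Each Nutlin-3a comparison shares a group of libraries with each siRFX7 comparison, so their values are only set side by side. PSMA5, PSMB2, PSMD3, PSMD11 and PSME3 were lower with Nutlin-3a in both tables and higher with siRFX7 in both. PSMB3, PSMD12 and PSMG3 were lower in all 4. PSMB8 and PSME1 rose with Nutlin-3a where RFX7 was not targeted, and fell with siRFX7 under both treatments. In all, 8 genes passed in none of the 4 tables, namely PSMA1, PSMB4, PSMB6, PSMB7, PSMC1, PSMD5, PSMD9 and PSMD10. How often all genes show each of these patterns was not computed, so none is shown to be particular to the proteasome genes.

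Whether RFX7 depletion altered the Nutlin-3a response was tested on the response of siRFX7 cells minus the response of siControl cells, on the log2 scale, with a z test from the deposited SEs, adjusted over the 21339 genes in both tables. None of the 46 genes was called, with a smallest adjusted p of 0.664, against 0.173% called higher and 0.764% called lower over all genes. At an unadjusted p under 0.05 only PSMA6 passed, with a difference of 0.40 (95% interval 0.04 to 0.76), as did 6.32% of all genes. The differences ran from -0.18 to 0.40 with a median of 0.01. For PSMB8 the difference was -0.08 (95% interval -0.26 to 0.09), for PSMB9 -0.08 (-0.31 to 0.15), for PSMB10 0.03 (-0.41 to 0.47), for PSME1 -0.05 (-0.21 to 0.11) and for PSME2 -0.03 (-0.17 to 0.11). For PSMG3 it was -0.15 (-0.32 to 0.01) and for PSMC6 0.16 (-0.01 to 0.32). These intervals do not show that the responses were alike, and that of PSMB10 is the widest of the 5 inducible genes.

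Levels differed widely across the family. Per kilobase of 1 coding transcript a gene in GENCODE 29 (the best APPRIS rank, then the longest coding sequence), the siControl DMSO level had a median of 2809 normalised counts over the 31 constitutive genes, from 7.18 for PSMC1 to 9197 for PSMD2. On the same per-kilobase scale PSMB8 was at 45.2% of PSMB5, PSMB9 at 17.2% of PSMB6 and PSMB10 at 2.51% of PSMB7. The activator genes PSME1, PSME2 and PSME4 were at 2047, 1537 and 1136, and no such level is given for PSME3, whose transcript chosen by this rule has no annotated 3′ UTR. By these values each immunoproteasome gene was below its constitutive counterpart. For PSMB10 the value has a limit, since 45.3% of its transcript is shared with AC040162.1 on the same strand. In the table of Nutlin-3a in siControl, AC040162.1 had a base mean of 139 and PSMB10 137. How far the sharing lowers the level of PSMB10 was not tested.

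The lowest constitutive levels belonged to genes with near copies elsewhere in the genome or with exons shared with other genes. PSMC1 had a base mean of 29.8 in the table of Nutlin-3a in siControl, while the row of its pseudogene PSMC1P1, which is 99.9% identical to it over 1320 bases, had 2230. PSMC1 held 1.3% of the sum with its pseudogene rows. Exons of NRDE2 on the opposite strand also cover 82.1% of its transcript, and whether the counting used the strand is not given in the sources used here. PSMC1P1 was called lower with Nutlin-3a in both tables (-0.31, SE 0.04, and -0.20, SE 0.06), where PSMC1 was at -0.21 (SE 0.27) and -0.39 (SE 0.29). The values of PSMC1 are therefore uncertain, and the 0.57 (SE 0.27) and 0.39 (SE 0.28) it showed with siRFX7 did not pass.

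**Figure D4:**
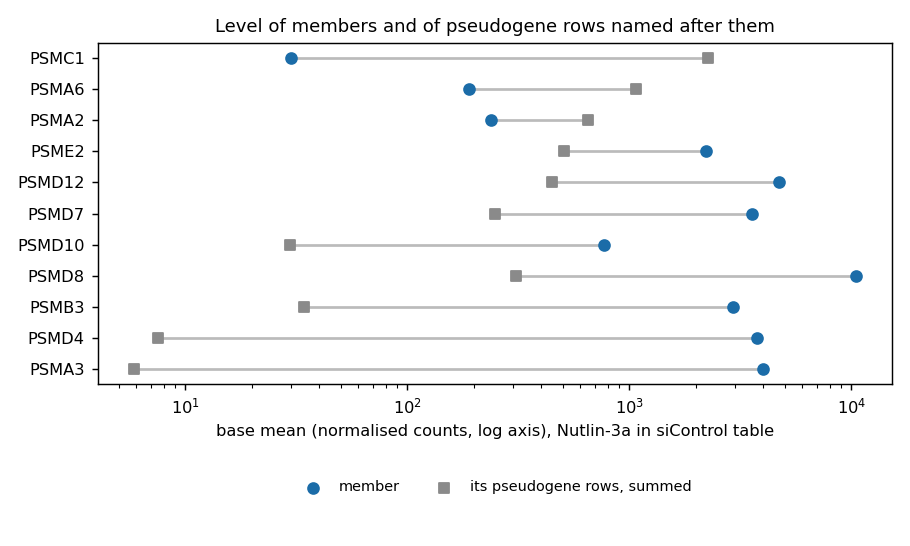
Base mean (normalised counts, log axis) of 11 proteasome genes (blue) and of the pseudogene rows named after each, summed (grey), in the table of Nutlin-3a in siControl. The grey point lies right of the blue one for PSMC1, PSMA6 and PSMA2.

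PSMA6 held 15.0% of the sum with 2 pseudogene rows, of which the nearer was 97.4% identical over 741 bases, and 81.0% of its transcript is shared with AL121594.1 on the same strand. With the pseudogene levels added, an alternative chosen after seeing the data, the Nutlin-3a values of PSMA6 were -0.15 in siControl and -0.20 in siRFX7, in place of -0.42 and -0.02. PSMA2 held 26.6% of its sum, and 52.5% of its transcript is shared with AC010132.3. With pseudogene levels added its siRFX7 value under DMSO was -0.13 in place of 0.31, so the rise called for PSMA2 changed sign. For the other genes with such rows, the member held 81.4% or more of the sum in this table. PSMA1 and PSMD9 also share 53.2% and 43.8% of their transcripts with other genes on their strand.

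The pseudogene rows of PSME2 moved with it only in part. PSME2P2, 94.4% identical to PSME2 over 715 bases, was called lower with siRFX7 in both tables (-0.40, SE 0.09, and -0.48, SE 0.10), and PSME2P6 was at 0.56 (SE 0.28) and 0.30 (SE 0.29), which did not pass. How far these rows hold reads of PSME2 itself was not tested.

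Genes that make, modify or work with the proteasome were read from lists. Of 15 proteasome-associated factors, 10 fell with Nutlin-3a in siControl and 10 in siRFX7, and none rose, with medians of -0.20 and -0.16 in the authors' deposited tables, against 19.6% and 20.3% of all genes called lower. UCHL5, a deubiquitinase of the cap, was at -0.67 (SE 0.08) and -0.49 (SE 0.09), the lowest of the list in both. RAD23B, which carries ubiquitinated substrates to the proteasome, fell by 0.31 and 0.33, and ADRM1, the ubiquitin receptor that docks UCHL5, by 0.27 and 0.30. With siRFX7, 5 of the 15 rose and 3 fell under DMSO, and 6 rose and 1 fell under Nutlin-3a. The shares of all genes were 19.9% higher and 17.5% lower under DMSO and 17.2% and 15.4% under Nutlin-3a, so the count of 3 lower (20%) was near the background. Under centring 3 of the 15 rose under DMSO.

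A list for the transcription and maturation of proteasomes held 11 genes, among them genes of protein degradation at the endoplasmic reticulum such as SEL1L. With siRFX7, 5 of the 11 rose under each treatment, 4 of them under both, and 2 fell under DMSO and 1 under Nutlin-3a. The 5 are 45.5%, against 19.9% of all genes under DMSO and 17.2% under Nutlin-3a. Those that fell are 18.2% and 9.09%, against 17.5% and 15.4%, so near or below the background. NFE2L1, the factor that raises proteasome genes when the proteasome is inhibited, rose by 0.24 (SE 0.03) and 0.15 (SE 0.03). SEL1L, part of the ligase that degrades proteins of the endoplasmic reticulum, rose by 0.75 (SE 0.04) and 0.66 (SE 0.03). With Nutlin-3a, 4 of the 11 fell in each table (UFD1, NPLOC4 and AKIRIN2 in both), and 2 rose in siControl and 3 in siRFX7. Those 2 (18.2%) are at the share of all genes called higher, 18.3%, while 36.4% were lower against 19.6% in siControl and 20.3% in siRFX7. The 3 that rose in siRFX7 are 27.3%, against 18.7%. Under centring 4 rose in siControl. POMP, the maturation chaperone of the core, passed in no table. Of 6 ubiquitin and ubiquitin-activation genes, none passed with Nutlin-3a in siControl, and UBB fell in siRFX7 (-0.31, SE 0.04). That is 16.7% lower, near the 20.3% of all genes. The UBB responses to Nutlin-3a differed, by -0.24 (adjusted p = 0.00298 in the z test). With siRFX7, 1 of the 6 rose and 1 fell under DMSO, and none rose and 1 fell under Nutlin-3a. Each of these single calls is 16.7%, near the shares of all genes.

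The antigen-processing genes that work with the immunoproteasome fell with siRFX7 or did not pass. Of 13, 4 fell under DMSO and 8 under Nutlin-3a, and 12 were below 0 under each. Those are 30.8% and 61.5%, against 17.5% and 15.4% of all genes, and under centring the count under DMSO was 7. TAP1, the peptide transporter gene beside PSMB9, fell by 0.36 (SE 0.05) and 0.28 (SE 0.04). With Nutlin-3a, 6 of the 13 rose and 2 fell in siControl (TAP2, at -0.21, and NLRC5, at -0.27), and 4 rose and 2 fell in siRFX7. Those that rose are 46.2% in siControl and 30.8% in siRFX7, against 18.3% and 18.7% of all genes. The 2 that fell are 15.4% in each, below the 19.6% and 20.3% of all genes. TAP1, the highest of the 13 in both, rose by 0.88 (SE 0.04) in control and 0.96 (SE 0.05) in RFX7-depleted cells, values that stand against 0.16 and 0.08 for PSMB9. RefSeq starts of PSMB9 and TAP1, on opposite strands, lie 488 or 1431 bases apart, depending on the TAP1 start. IRF1, a transcription factor of the interferon response, was at -0.15 (adjusted p = 0.057) under DMSO and fell by 0.52 (SE 0.07) under Nutlin-3a, and its Nutlin-3a responses differed by -0.37 (adjusted p = 0.0269 in the z test). NLRC5, the activator of MHC class I genes, passed with siRFX7 in neither table.

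The 3′ UTRs were searched for 2 short sequences, picked in an earlier scan of these fold changes for letters that go with lower values under siRFX7. PSME3 had no annotated 3′ UTR in the transcript used, which left 45 genes. GTATCTA was in 4 of the 45, PSMA1, PSMA4, PSMD1 and PSME4, against 7.29% of 11213 protein-coding genes, nearly all at a base mean of 100 or more, and GACGTA was in none, against 4.29%. PSMB8, PSMB9, PSMB10, PSME1 and PSME2 held neither, in 3′ UTRs of 44 to 242 bases. That says only that these letters are not in the UTRs searched. Of the 4 genes with GTATCTA, none was called lower with siRFX7, and PSME4 rose under both treatments. Because the letters were picked from these same fold changes, these calls are no independent check, and no conclusion is drawn from them.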

How the data were processed

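The deposited files were 4 tables, each comparing 2 groups over 8 libraries, without values per library. Per the submitters' processing notes, the tools were bcl2fastq 2.19.1.403, Trimmomatic 0.39, FastQC 0.11.9, cutadapt 2.10, SAMtools 1.10, Picard, featureCounts 1.6.5 and DESeq2 1.20.0, with the build hg38; the aligner, the annotation and the strand setting are not given in the sources used here. The authors' base mean is a signal, the mean normalised count over the libraries of a table. The log2 fold change and its standard error, the Wald statistic (a score) and the p-value, with its adjustment, were used as the authors deposited them. Each adjusted p covered all genes of its table. Depth per library is unknown, so the SE carries the precision.

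Each table's direction was settled from its values: over 19344 genes the 4 tables closed to an SD of 0.00291 (log2), and RFX7, CDKN1A and MDM2 fixed the signs. Group levels were split from base mean and log2 fold change, taking 4 libraries a group. The difference of Nutlin-3a responses was a two-sided z test with Benjamini-Hochberg adjustment over 21339 genes, tested on simulated data. Alternatives were an adjusted p under 0.01, a size of at least 0.25, adjustment over protein-coding genes at a base mean of 100 or more, centring on the median, and for the difference a robust SD and the other pair of tables.

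The rule named every gene of the family, with full values for the proteases, the activators, PSMF1, PSMD10 and the 3 highest and 3 lowest calls of a table. The members and lists were chosen with earlier results of these data known. Positions came from GENCODE 29, promoters from RefSeq GRCh38.p14, and identities from BLAST 2.17.0. Python 3.11.15, pandas 2.3.3, NumPy 2.4.6, SciPy 1.17.1 and Matplotlib 3.10.9 were used.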

Additional observations from a re-analysis of the deposited data

How the results depend on the processing

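No paired analysis was possible because the tables hold no value of a single library, and for the same reason no replicate was left out in turn. Counts of calls moved by over 1.5 times with a size of at least 0.25: with Nutlin-3a, 0 genes were higher and 7 lower in siControl and 7 lower in siRFX7; with siRFX7, 3 were higher and 6 lower under DMSO, and 2 higher and 7 lower under Nutlin-3a. Most calls are smaller than that size. Centring on the median gave 1 gene higher with Nutlin-3a in siRFX7, PSMB8. An adjusted p under 0.01 and adjustment over protein-coding genes at a base mean of 100 or more kept all counts over the 46 genes within 1.5 times. For the difference of responses no member was called under any alternative run. With pseudogene levels added, chosen after seeing the data, PSMA2 with siRFX7 under DMSO was -0.13; the levels added are larger than its own. The precision of PSMC1, PSMA6, PSMA2 and PSMB10 is limited by their low levels.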
